A study of Homo sapiens with 4 samples.

Results

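The 6 genes described here encode inhibitors of cyclin-dependent kinases (CDKs) that belong to the KIP and INK4 families: CDKN1B, CDKN1C, CDKN2A, CDKN2B, CDKN2C and CDKN2D. They were chosen by name and not by a rule on measured values, though earlier results of these data were known. They are 6 of the 60612 genes in the count table. RNA sequencing (RNAseq) of poly(A) RNA was performed on 4 libraries of IMR-32 cells, a human line grown from a neuroblastoma in which MYCN is amplified. Each library came from cells stably transduced with a short hairpin RNA that doxycycline induces, and all 4 received doxycycline at 1 µg/mL for 48 h. The shControl group (2 libraries) carried a non-targeting hairpin, although the labels give its genotype as WT and the series text speaks of parental cells. The shNeuroD1 group (2 libraries) carried a hairpin against NeuroD1, a basic helix-loop-helix transcription factor of neuronal development. The study's own count table for these libraries names a single NeuroD1 hairpin, and the counts compared with it were equal to the deposited ones, so the shNeuroD1 group rests on 1 hairpin in 1 cell line. Nothing in the labels says that replicates were cultured apart, so p-values measure the spread between these libraries, which may be technical.

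The KIP proteins among these members, p27 (CDKN1B) and p57 (CDKN1C), bind complexes of a cyclin with its CDK. They block mainly CDK2, the kinase that carries cells into S phase. INK4 proteins, p16 (CDKN2A), p15 (CDKN2B), p18 (CDKN2C) and p19 (CDKN2D), bind CDK4 and CDK6 and keep cyclin D from joining them. Both families hold the retinoblastoma protein in its active state, in which it represses E2F target genes. CDKN2A also encodes ARF, an unrelated protein read from another first exon in another frame, which inhibits MDM2 and so stabilizes p53. In developing neurons several of these inhibitors are known for their part in leaving the cell cycle.

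The libraries held 14665210 to 16482463 counts, and 26071 to 27121 genes had a count. NEUROD1, the targeted gene, was at 418.9 and 414.5 CPM in shControl and at 63.7 and 58.2 CPM in shNeuroD1, 14.6% of its control level (log2 fold change -2.77, SE 0.0504, edgeR adjusted p 8.59e-29). The FPKM rows under its name, at 5.29 and 15.2 against 3.99 and 4.44, did not follow its counts. Whether they hold reads of other genes was not tested, so they are not read as its level. Fold changes are shNeuroD1 over shControl from the edgeR quasi-likelihood F test, with p-values adjusted by Benjamini-Hochberg over all genes tested, and levels are CPM, counts divided by a library size that TMM corrects for RNA composition. Adrenergic neuroblastoma markers were present in all libraries: their summed level ran from 2125 to 2141 CPM in shControl and from 1822 to 1862 CPM in shNeuroD1. Of these 8 markers, TH and DBH, enzymes of noradrenaline synthesis, lay between 0.679 and 5.79 CPM. The 5 Schwann cell markers summed to 5.42 and 5.43 CPM in shControl and to 8.74 and 10.1 CPM in shNeuroD1, with SOX10 at 1.07 CPM or less. The 3 immune markers summed to at most 0.592 CPM with CD3E at 0. The 4 epithelial markers summed to at most 1.84 CPM with CDH1 at 0, but EPCAM rose from 0 and 1 count to 28 and 21 counts (edgeR adjusted p 7.01e-07). The 7 mesenchymal markers summed to between 117 and 134 CPM with PRRX1 at 0, and of the 5 tested 3 rose (COL3A1, from 0 and 2 counts to 15 and 18, THY1 and PDGFRB) and 2 fell (COL1A1 and FN1). The share of counts from mitochondrial genes was 4.37% to 4.59% in shControl libraries and 5.39% to 5.51% in shNeuroD1 libraries. The part of these differences in the results on the inhibitors was not tested, and in bulk RNA fewer cells of a type and less RNA per cell cannot be told apart.

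Where transcripts of the members start matters most for CDKN2A, whose alternative first exons encode different proteins, and for CDKN2C. RefSeq promoter windows (250 bases before and 50 bases after a start, GRCh38.p14) were matched by symbol for 5 of the 6 members, all but CDKN1C, and gave 8 windows. 2 windows are shown because they lie before the outermost starts of these genes and hold no base of the gene's own GENCODE exons in the 250 bases upstream. The first precedes the CDKN2C start that was listed in 1 library alone, as described below. The second precedes the outermost CDKN2A start in RefSeq, on the side of the ARF first exon. Both are written 5′ to 3′ on the strand of the gene, and capitals mark an E-box, the motif CANNTG that basic helix-loop-helix factors bind.
CDKN2C, chr1:50960495-50960744, plus strand: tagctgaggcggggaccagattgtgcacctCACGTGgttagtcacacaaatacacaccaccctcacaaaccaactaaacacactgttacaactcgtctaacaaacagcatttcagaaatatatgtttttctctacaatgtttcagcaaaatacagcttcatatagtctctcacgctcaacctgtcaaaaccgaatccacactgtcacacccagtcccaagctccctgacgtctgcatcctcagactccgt
CDKN2A, chr9:21995325-21995574, minus strand: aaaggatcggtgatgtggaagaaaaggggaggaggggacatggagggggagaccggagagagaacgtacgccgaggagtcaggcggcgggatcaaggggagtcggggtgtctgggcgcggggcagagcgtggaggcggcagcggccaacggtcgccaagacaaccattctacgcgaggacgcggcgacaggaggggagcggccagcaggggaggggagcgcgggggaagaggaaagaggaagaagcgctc

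Windows were searched on both strands for E-boxes (CANNTG, with CAGATG and CAGCTG counted also on their own, so these overlap the general motif), for the E2F motifs TTTCGCGC, TTTGGCGC and TTTCCCGC, and for the FOXO motif GTAAACA. The CDKN2C sequence above holds 1 E-box, CACGTG, whose first base lies 220 bases before the start. The window of the middle CDKN2C start held CAGCTG 208 bases before it, and that of the innermost start held CATCTG, which reads CAGATG on the other strand, 211 bases and CACGTG 69 bases before it. In the second window an E-box, CAGATG, began 1 base before the start and ran past it, so it is not complete in the sequence shown. CDKN2B had CAGCTG 36 bases and CDKN2D had CAGTTG 81 bases before the start. The windows of CDKN1B and of the inner CDKN2A start, in the INK4A first exon, held none of these motifs, and no member window held an E2F or FOXO motif. Over all 34796 windows of this length, 68.7% held an E-box, 14.7% held CAGATG, 17.9% held CAGCTG, 2.73% held an E2F motif and 3.42% held the FOXO motif. A match is a description of the letters and not a site of binding.

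Of the 6 inhibitor genes, 2 fell, 2 rose, 1 did not pass the test and 1 was too low to be tested after NeuroD1 knockdown. The abundant members, CDKN1B and CDKN2C, were lower in shNeuroD1, and the scarce members CDKN1C and CDKN2A were higher. Among all 17537 genes tested, 28.2% were lower and 26.8% were higher at an edgeR adjusted p under 0.05, so calls were common over the whole table and the count of members called (4 of the 5 tested) is to be read against these shares. The study also asked for a log2 fold change greater than 1 in either direction. No member passed that pair of thresholds, which 13.9% of all tested genes did. The shControl and shNeuroD1 values of 4 of the 5 tested members did not overlap, as was so for 76.1% of all tested genes. In the order of all tested genes by log2 fold change, 10.2% lay below CDKN2C, 14.3% below CDKN1B, 52.2% below CDKN2D, 89.1% below CDKN2A and 89.9% below CDKN1C. The median of all tested genes was 0.01. Scaling by library size alone moved that median to 0.12 and the share of called genes that were lower from 51.3% to 37.3%, without changing the direction of a called member.

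**Figure D1:**
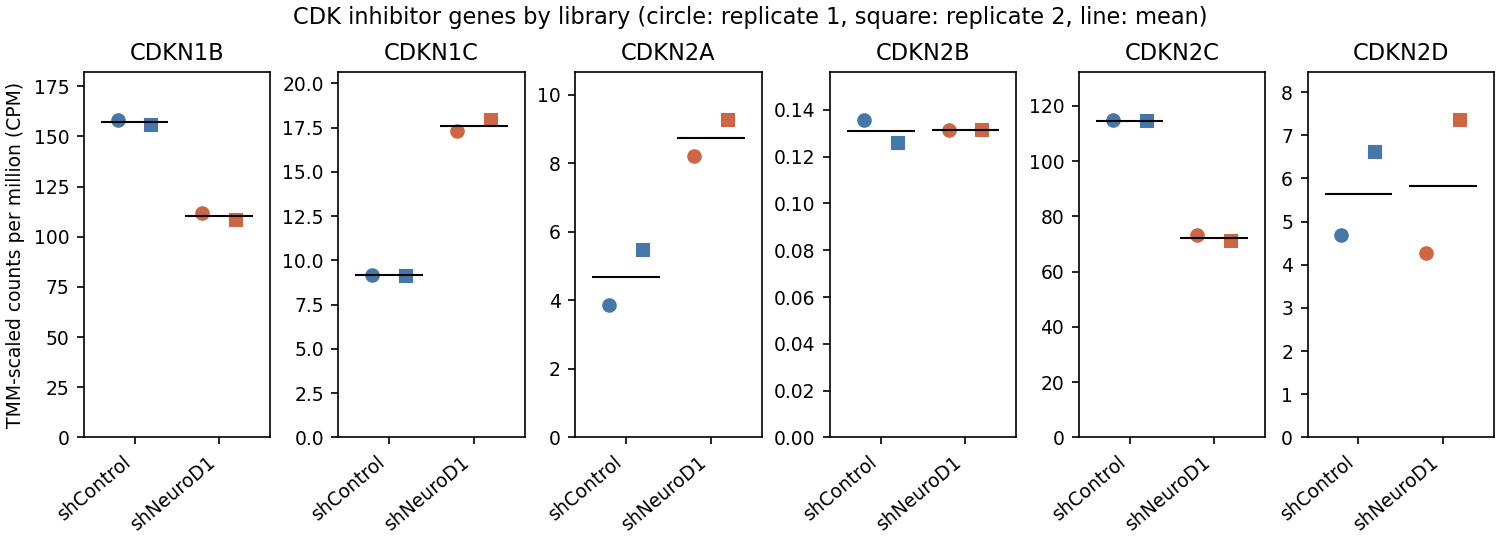
Level of each CDK inhibitor gene in each library, in TMM-scaled CPM on an axis of its own that starts at 0, with replicates as circles and squares and the mean as a line. CDKN1B and CDKN2C lie lower in shNeuroD1 (110.2 against 157 CPM and 72.1 against 115 CPM), CDKN1C and CDKN2A lie higher (17.6 against 9.15 CPM and 8.74 against 4.67 CPM), and the groups of CDKN2B and CDKN2D overlap.

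CDKN1B (ENSG00000111276, GRCh38 chromosome 12, 12715058 to 12722371, plus strand) encodes p27 and was the most abundant member. The shControl libraries held 2332 and 2475 of its counts and the shNeuroD1 libraries 1704 and 1650, or 158 and 156 CPM against 112 and 108 CPM. Both shNeuroD1 libraries lay below both shControl libraries, and the replicates of a group differed by only a few CPM. The mean fell from 157 ± 1.67 CPM to 110.2 ± 2.58 CPM (SD, n = 2 for both groups), to 70.2% of control. The log2 fold change was -0.51 (SE 0.0483, 95% interval -0.61 to -0.41, edgeR adjusted p 1.02e-10).

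In FPKM, a unit scaled for transcript length, CDKN1B was listed at 47.4 and 47.8 in shControl and at 36.8 and 34.5 in shNeuroD1. The order of the groups was the same as in CPM, but limma on log2(FPKM + 1) gave -0.41 with an adjusted p of 0.0987. All of this FPKM was assigned to 1 start, at position 12717368. A sense-intronic RNA gene, AC008115.3, lies in an intron of CDKN1B on the same strand, shares no exon base with it and had 20 to 38 counts.

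CDKN1C (ENSG00000129757, GRCh38 chromosome 11, 2883213 to 2885773, minus strand) encodes p57 and lies in an imprinted domain, where the maternal copy is the active one. The shControl libraries held 135 and 145 of its counts and the shNeuroD1 libraries 263 and 273, or 9.16 and 9.13 CPM against 17.3 and 17.9 CPM. The groups were far apart and the replicates close together. The mean rose from 9.15 ± 0.0197 CPM to 17.6 ± 0.453 CPM (SD, n = 2 for both groups), 1.92-fold. The log2 fold change was 0.94 (SE 0.124, 95% interval 0.69 to 1.2, edgeR adjusted p 8.68e-08). The interval holds 1, and scaling by library size alone put the value at 1.06, past both thresholds.

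The FPKM of CDKN1C was 2.08 and 2.45 in shControl, against 6.48 and 6.20 after knockdown, a wider gap than in CPM. Of the 4 members in the FPKM fit, CDKN1C was the one called, with a log2 fold change of 1.17 at a pseudocount of 1 (limma adjusted p 0.0364) and 1.45 at 0.1 (limma adjusted p 0.0402). Nearly all of it came from the start at position 2885775, with 98.3% in each shControl library, 88.7% in shNeuroD1 replicate 1 and nearly all in replicate 2. The rest was assigned to a start a few bases away, in a longer first exon.

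CDKN2A (ENSG00000147889, GRCh38 chromosome 9, 21967753 to 21995301, minus strand) encodes p16 and ARF. The shControl libraries held 57 and 87 of its counts and the shNeuroD1 libraries 125 and 141, or 3.87 and 5.48 CPM against 8.22 and 9.26 CPM. The groups did not overlap, and the shControl libraries differed from each other, relative to their mean, more than those of CDKN1B or CDKN1C. The mean rose from 4.67 ± 1.14 CPM to 8.74 ± 0.737 CPM (SD, n = 2 for both groups). The log2 fold change was 0.89 (SE 0.181, 95% interval 0.53 to 1.26, edgeR adjusted p 9.17e-05).

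The size of this change depends on the shControl libraries. Without shControl replicate 1, which had the lowest CDKN2A level, the log2 fold change was 0.66 and the call was lost. Without shControl replicate 2 it was 1.16. Such fits leave 1 library in a group. The fit without shControl replicate 1 raised the adjusted p of NEUROD1 too, at a nearly unchanged log2 fold change (-2.78 against -2.77). A call lost in such a fit, here or below, is therefore not read as an effect of that library alone. Scaling by library size alone gave 1.01, past both thresholds. The FPKM summed over its starts was 2.20 and 2.67 in shControl, against 4.60 and 5.03 after knockdown, and was not called (log2 fold change 0.76 at a pseudocount of 1, limma adjusted p 0.0745).

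Levels of the CDKN2A first exons were taken from the FPKM of transcript starts. The INK4A start (position 21975098, transcript ENST00000304494, the p16 protein) was listed at 1.25 and 1.01 FPKM in shControl and at 1.78 and 2.82 FPKM in shNeuroD1. The ARF start (position 21994624, transcript ENST00000579755) was listed at 0.956 and 1.66 FPKM in shControl and at 2.71 and 2.21 FPKM in shNeuroD1. For both starts each shNeuroD1 library lay above each shControl library.

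The share of CDKN2A FPKM at the INK4A start was 56.6% and 37.7% in shControl, against 38.7% and 56.0% after knockdown. These shares varied as widely within a group as between groups, so no shift between p16 and ARF transcripts larger than the spread between libraries was seen. Another start, the outermost, at position 21995301 was listed in shNeuroD1 replicate 1 at 0.106 FPKM and in no other library.

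CDKN2A overlaps an antisense gene, CDKN2B-AS1, also called ANRIL, an RNA implicated in silencing of the locus. The annotations share 341 exon bases, 7.88% of the exon bases of CDKN2A. The shControl libraries held 18 and 19 CDKN2B-AS1 counts and the shNeuroD1 libraries 10 and 18 (log2 fold change -0.39, edgeR adjusted p 0.452). The use of strand in counting was not stated, so reads in the shared bases cannot be assigned. CDKN2B-AS1 had fewer counts than CDKN2A in every library. In FPKM the rows under its name were higher than those of CDKN2A in every library, at 5.78 and 3.51 in shControl and at 7.38 and 7.71 in shNeuroD1. MTAP, on the same strand as CDKN2B-AS1, had 716 to 979 counts a library but no FPKM in any. Whether the FPKM rows of CDKN2B-AS1 hold reads of other genes was not tested, so they are not read as its level. The part of the antisense gene in the CDKN2A values was not tested.

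CDKN2B (ENSG00000147883, GRCh38 chromosome 9, 22002903 to 22009363, minus strand), which encodes p15 and lies beside CDKN2A, had 2 counts in every library. It was removed by the filter on low counts, was listed in no FPKM table and was not tested. With so few counts a difference was not detectable at this depth.

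CDKN2C (ENSG00000123080, GRCh38 chromosome 1, 50960745 to 50974633, plus strand) encodes p18 and was the most abundant INK4 member. The shControl libraries held 1694 and 1816 of its counts and the shNeuroD1 libraries 1115 and 1081, or 115 and 114 CPM against 73.3 and 71.0 CPM. The groups were far apart, and the replicates of a group were within a few CPM of each other. The mean fell from 115 ± 0.402 CPM to 72.1 ± 1.63 CPM (SD, n = 2 for both groups), to 62.9% of control. The log2 fold change was -0.67 (SE 0.0532, 95% interval -0.78 to -0.56), with the smallest edgeR adjusted p of the members, 2.00e-12.

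The FPKM values of CDKN2C spread more than its counts, at 35.7 and 49.0 in shControl and at 35.4 and 17.9 in shNeuroD1. The FPKM of shNeuroD1 replicate 1 was close to that of shControl replicate 1, although their counts were not, and limma on log2(FPKM + 1) gave -0.71 with an adjusted p of 0.305.

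CDKN2C transcripts were assigned to 3 starts, which differed between libraries more than the gene total did. The middle start (position 50968706) was listed at 20.9 and 18.7 FPKM in shControl, at 16.0 FPKM in shNeuroD1 replicate 1 and at 0.0695 FPKM in shNeuroD1 replicate 2. The innermost start (position 50970245) was listed at 14.8 and 30.3 FPKM in shControl and at 19.4 and 3.68 FPKM in shNeuroD1. The outermost start (position 50960745, transcript ENST00000262662), the one whose upstream sequence is given above, was listed at 14.1 FPKM in shNeuroD1 replicate 2, where it took 79.0% of the FPKM, and in no other library. shNeuroD1 replicate 1 resembled the shControl libraries in its starts, so the replicates of the shNeuroD1 group did not share the pattern. All 3 start positions are also starts in RefSeq.

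**Figure D2:**
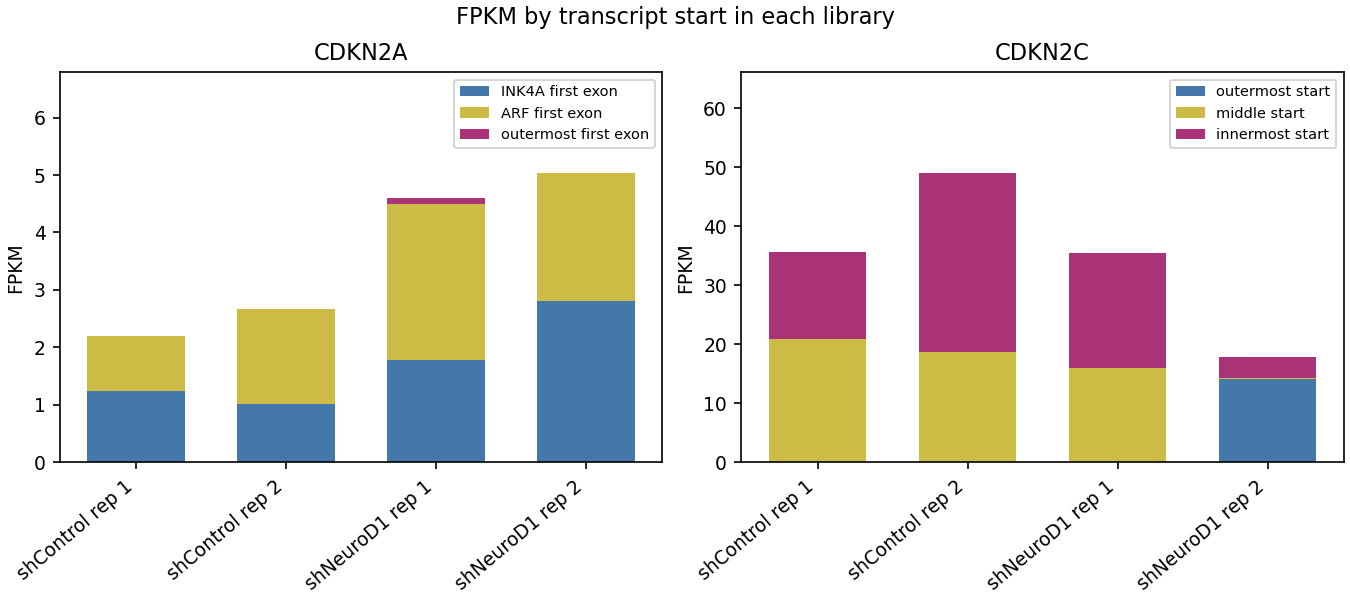
FPKM of each transcript start of CDKN2A and CDKN2C in each library, stacked so that the bar height is the gene's summed FPKM. Both main CDKN2A first exons are higher in the shNeuroD1 libraries, whereas in shNeuroD1 replicate 2 most CDKN2C FPKM (79.0%) lies at the outermost start, which no other library lists.

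CDKN2D (ENSG00000129355, GRCh38 chromosome 19, 10566462 to 10569059, minus strand) encodes p19, an INK4 protein known from neurons that have stopped dividing. The shControl libraries held 69 and 105 of its counts and the shNeuroD1 libraries 65 and 112, or 4.68 and 6.61 CPM against 4.27 and 7.36 CPM. The groups overlapped fully, and the replicates of a group lay further apart than the group means. The log2 fold change was 0.04 (SE 0.213, 95% interval -0.40 to 0.47, edgeR adjusted p 0.904), an interval that leaves room for a change in either direction. CDKN2D was listed in the FPKM tables of 1 library in each group, at 1.08 FPKM in shControl replicate 2 and at 0.971 FPKM in shNeuroD1 replicate 2.

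**Figure D3:**
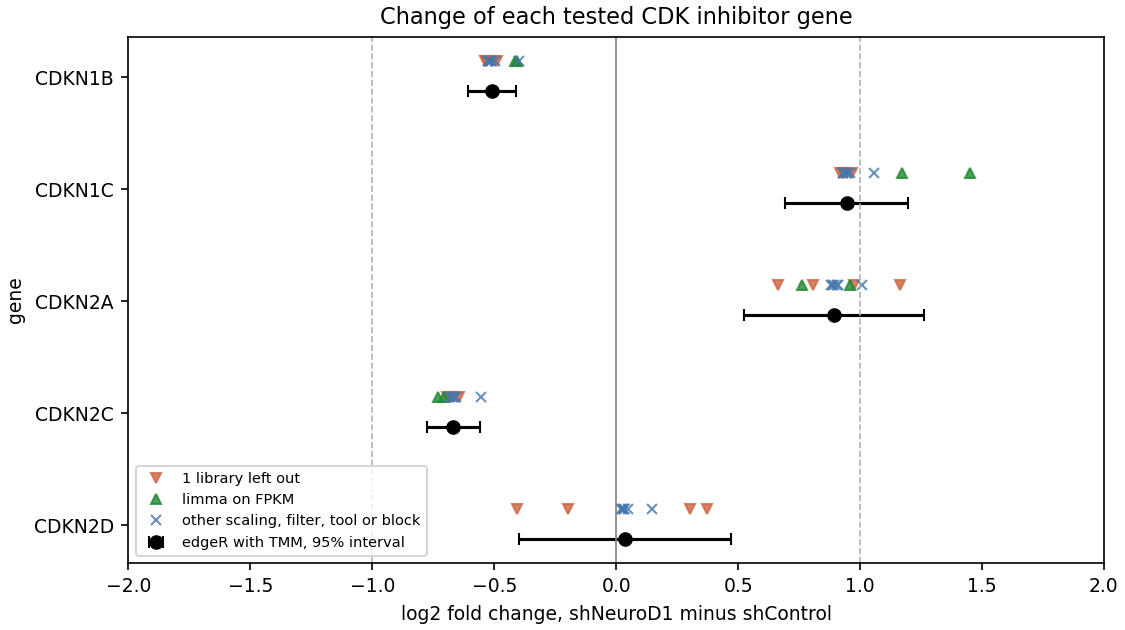
Log2 fold change (shNeuroD1 minus shControl) of the 5 tested CDK inhibitor genes. Black points and bars give the edgeR value with its 95% interval, coloured marks give the values under other processing, and dashed lines mark a log2 fold change of 1 in size. CDKN1B and CDKN2C stay below 0 and CDKN1C and CDKN2A above 0 under every processing tried, while CDKN2D falls on either side of 0.

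Per length, the members spanned a wide range in shControl. By FPKM, CDKN1B (47.4 and 47.8) and CDKN2C (35.7 and 49.0) stood far above the rest, and their ranges overlapped. CDKN2A (2.20 and 2.67) and CDKN1C (2.08 and 2.45) followed with overlapping ranges, then CDKN2D, listed in 1 shControl library, while CDKN2B was listed in none. By CPM per kb of annotated exon the first 2 kept their places, with 56.3 and 55.5 for CDKN1B and 34.6 and 34.5 for CDKN2C. On that scale CDKN2A came last but one, at 0.893 and 1.27 CPM per kb, below CDKN1C (3.7 and 3.69) and CDKN2D (3.12 and 4.4), so the order of the scarce members depends on the unit.

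The members summed to 98.7 and 99.3 CPM per kb in shControl and to 73.7 and 74.2 CPM per kb in shNeuroD1. Within this sum CDKN1B took 57.1% and 55.8% in shControl and 54.1% and 51.9% in shNeuroD1, and CDKN2C went from 35.1% and 34.7% to 30% and 28.8%. CDKN1C went from 3.75% and 3.71% to 9.47% and 9.75%, and CDKN2A from 0.906% and 1.28% to 2.58% and 2.88%. p27 and p18 transcripts thus made up most of the sum over these 6 genes in every library. The shares use all annotated exons as the length of a gene.

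The question of whether inhibitor transcripts moved with those of their kinases was addressed by ratios within a library, which do not depend on scaling between libraries. The kinases were themselves lower in shNeuroD1. The ratio of INK4 members to CDK4 plus CDK6 in FPKM was 0.276 and 0.275 in shControl, against 0.581 and 0.266 after knockdown. shNeuroD1 replicate 2 thus lay slightly below the shControl libraries and replicate 1 far above them. In CPM per kb, a scale added after seeing the data, it was 0.245 and 0.246 against 0.25 and 0.262, a mean 1.04 times control in place of 1.54 times in FPKM.

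The ratio of CDKN1B plus CDKN1C to CDK2, the kinase they inhibit, was 1.38 and 1.07 in shControl, against 3.47 and 3.04 after knockdown in FPKM. In CPM per kb it was 1.37 in both shControl libraries and 2.74 and 2.50 in shNeuroD1. Both scales put each shNeuroD1 library above each shControl library, while the numerator itself was lower in shNeuroD1. The ratio of CDKN1B to SKP2, the F-box protein that marks p27 for degradation, was 0.818 and 0.814 in shControl, against 1.21 and 1.17 after knockdown in FPKM, and in CPM per kb it was 0.795 and 0.793 against 1.05 and 0.980.

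Between members, CDKN1C relative to CDKN1B went from 0.0440 and 0.0513 to 0.176 and 0.180 in FPKM. CDKN2A relative to CDKN2C went from 0.0617 and 0.0545 to 0.130 and 0.281 in FPKM and from 0.0258 and 0.0367 to 0.0859 and 0.1 in CPM per kb. The ratios are given as values with no test. An exact permutation test of 2 against 2 libraries cannot go below p = 0.333.

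**Figure D4:**
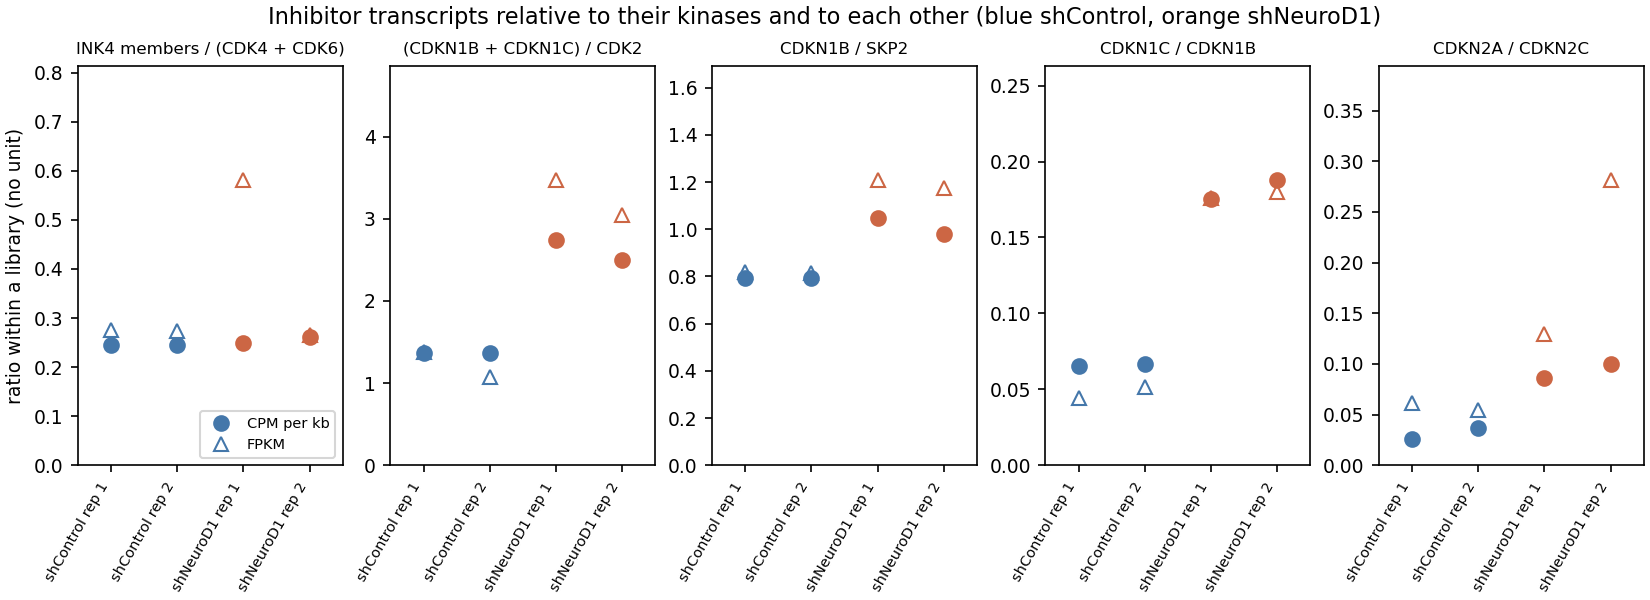
Ratio of inhibitor transcripts to their kinases, to SKP2 and to each other in each library, in CPM per kb (filled circles) and FPKM (open triangles), on axes that start at 0. The ratio of CDKN1B plus CDKN1C to CDK2 lies at 1.07 to 1.38 in shControl and at 2.50 to 3.47 in shNeuroD1, whereas that of the INK4 members to CDK4 plus CDK6 lies between 0.245 and 0.262 in CPM per kb and reaches 0.581 in 1 library in FPKM.

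Most of the listed kinases and cyclins fell. The counts in this and the other gene lists are to be read against all tested genes, of which 28.2% were lower and 26.8% higher. Of 13 tested kinases and cyclins, 9 fell and 0 rose (median log2 fold change -0.45, against 0.01 over all genes). The list includes CDK7, CCNH and MNAT1, which are not taken here as targets of the inhibitors. Of these, MNAT1 is among the 9 that fell (by 0.27). CDK2 fell by 1.30 on the log2 scale, CCNE2 (cyclin E2) by 1.19, CDK1 by 1.04, CCNA2 (cyclin A2) by 0.95 and CDK4 by 0.82. CDK6 fell by 0.23 and CCND1 (cyclin D1) by 0.45. The size of the CDK6 change depended on the processing, with log2 fold changes of -0.12 when scaled by library size alone (edgeR adjusted p 0.0214) and -1.39 in FPKM (limma adjusted p 0.0404). CCND1 was higher in FPKM (log2 fold change 0.18, limma adjusted p 0.365). Of 13 retinoblastoma family and E2F genes, which act below the inhibitors, 9 fell and 0 rose (median -0.49), led by E2F1 (-1.65), E2F7 (-1.58), E2F8 (-1.58), RBL1 (-1.10) and E2F2 (-1.05). Scaling by library size alone added 1 gene that rose in that list.

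Of 15 genes that control the turnover and place of p27, 5 fell and 1 rose. The median was -0.09 and turned to 0.02 when scaled by library size alone, which gave 2 falls and 4 rises. SKP2 fell by 0.86 on the log2 scale, and CKS1B, its cofactor in the recognition of p27, by 1.04. UBAC1, a subunit of another p27 ligase, fell by 0.27 and RBX1, the RING subunit of cullin ligases, by 0.21, whereas UHMK1, a kinase that phosphorylates p27, rose by 0.13. DESeq2 did not call the last 3, with adjusted p of 0.0646, 0.141 and 0.279. Without shControl replicate 1 edgeR called none of them (adjusted p 0.1995 to 0.584), and leaving out any single library gave 3 falls and 0 or 1 rise in the list.

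Of 13 transcription factors and cofactors known to activate 1 or more of the inhibitors, 4 fell and 2 rose, with a median of -0.08 that turned to 0.03 when scaled by library size alone, which gave 5 rises. FOXO4 fell by 1.26 and BRCA1 by 1.25 on the log2 scale, SMAD4 by 0.39, and ETS2 (0.71) and SMAD3 (0.66) rose. FOXO3, an activator of CDKN1B, was at 0.12 (edgeR adjusted p 0.107) and FOXO1 at -0.56 (edgeR adjusted p 0.0555), with 36 to 72 counts a library. FOXO1 passed without shNeuroD1 replicate 1 (edgeR adjusted p 0.0334), and FOXO3 passed with scaling by library size alone (0.00259).

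Of 20 tested polycomb genes and other repressors of the inhibitors, 11 fell and 5 rose, with a median of -0.17. Of the core subunits of polycomb repressive complex 2, which silences CDKN2A in many cell types, SUZ12 fell by 0.83, EED by 0.69 and EZH2 by 0.61 on the log2 scale. BMI1, the polycomb protein best known as a repressor of CDKN2A, fell by 0.24, a call lost without shControl replicate 1 (edgeR adjusted p 0.155), shControl replicate 2 (0.0927) or shNeuroD1 replicate 2 (0.135) and with scaling by library size alone (0.0831). Polycomb genes did not all fall: CBX8 rose by 0.65 and CBX6 by 0.40. TBX2 (1.28), TBX3 (0.72) and ID2 (0.69), repressors of INK4 genes in other settings, rose, whereas ID1 fell by 0.33. Without shControl replicate 2 the list had 7 falls, and library size alone gave 8 rises.

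Near the members on their chromosomes, 5 of 16 tested genes fell and 5 rose (median -0.05, 0.07 when scaled by library size alone), shares near the 28.2% and 26.8% over all tested genes. KCNQ1OT1, the long non-coding RNA that silences the imprinted CDKN1C domain on the paternal copy, rose by 0.81 on the log2 scale together with CDKN1C, and SLC22A18 of that domain rose by 0.74, a call that DESeq2 did not make (adjusted p 0.177) and that was lost without shControl replicate 1 (edgeR adjusted p 0.101) or shNeuroD1 replicate 1 (0.0561). NAP1L4, another neighbour of CDKN1C, fell by 0.46. In the CDKN2A region MTAP rose by 0.40 and DMRTA1 fell by 2.26, in directions opposite to each other. Beside CDKN2C, DMRTA2 fell by 1.8 with 4 to 20 counts a library, a call that DESeq2 did not make (adjusted p 0.0903) and that was lost without either shControl library (edgeR adjusted p 0.0716 and 0.0661) or without shNeuroD1 replicate 2 (0.0755). The list had 2 rises without shControl replicate 1 or shNeuroD1 replicate 1, 3 falls without replicate 2 of either group, and 3 falls and 3 rises by DESeq2. Of 13 other proteins named for binding CDKs, 6 fell and 3 rose (median -0.24). The largest changes were those of CABLES1 (0.62), CDK2AP1 (-0.50), CDKN3 (-0.49), CDKN2AIP (-0.43) and CDK5R1 (0.43). Without shControl replicate 1 or 2 the call of CABLES1 was lost (edgeR adjusted p 0.0607 and 0.0779) and so was that of CDKN3 (0.304 and 0.122), which was lost too without shNeuroD1 replicate 1 (0.112). That list had 1 rise without either shControl library.

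**Figure D5:**
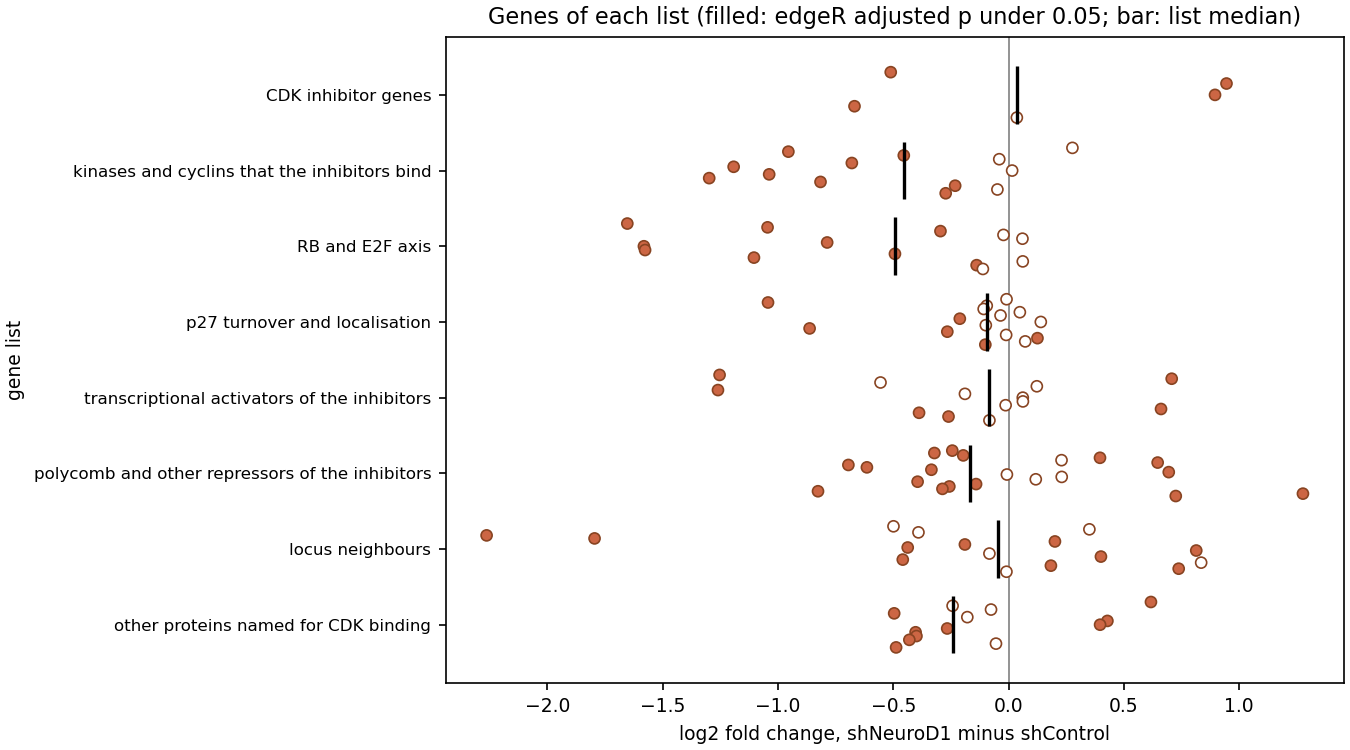
Log2 fold change (shNeuroD1 minus shControl) of every tested gene in each list, 1 point a gene, filled where the edgeR adjusted p was under 0.05, with the list median as a bar. The kinases and cyclins (median -0.45) and the RB and E2F genes (median -0.49) lie mostly left of 0, while the 5 tested CDK inhibitor genes split to both sides.

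The genes whose pattern over the 4 libraries lay nearest to that of each called member were sought among the 10560 tested genes that averaged 10 CPM or more, by the Euclidean distance of centred log2 CPM values. Nearest to CDKN1B were ANP32A (distance 0.00667), EZR (0.00954) and COLGALT1 (0.00990). Nearest to CDKN2C were HAUS2 (0.00762), CAMK2D (0.0134) and PC (0.0231). Nearest to CDKN1C were AGPAT4 (0.0228), CYP4V2 (0.0279) and RNF182 (0.0321). CDKN2A had more distant neighbours, H6PD (0.0760), NPTXR (0.124) and CLIP2 (0.134). With 4 libraries many genes lie close to any given pattern, and the likeness is a description.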

How the data were processed

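Counts and FPKM values were analysed for 2 shControl and 2 shNeuroD1 libraries, grouped and numbered by their titles. The authors deposited raw read counts for 60612 genes, and the submitters' processing notes name cutadapt 1.9.1, HISAT2 2.0.1, HTSeq 0.6.1, DESeq2 and the build hg38. The annotation release and the use of strand were not given in the sources used here. The authors also deposited FPKM values of transcript starts, ends and splicing events for each library, which list an event only above 0, and whose tool is not given in the sources used here. Their depth is unknown.

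Symbols were matched for 60401 gene IDs, and coordinates are those of GENCODE 29. Counts were tested in edgeR 4.0.16 (R 4.3.3) with filterByExpr (minimum count 10), TMM, the two-sided quasi-likelihood F test and Benjamini-Hochberg adjustment over 17537 genes. The standard error is the log2 fold change over the square root of F. On simulated data the script was checked against known changes. Gene FPKM was the sum over listed starts, tested in limma 3.58.1 for the 10083 genes that averaged 1 FPKM or more. NEUROD1 was left out of that fit, as its FPKM rows are not read as its level. DESeq2 1.42.0, scaling, filters, the replicate block, FPKM and leaving out each library were alternatives. The deviations of libraries with equal numbers were nearly unrelated (correlation 0.0158), so no pairing was used.

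The members and gene lists were chosen with earlier results of these data known. Named genes are the members, NEUROD1, 13 genes set by role (CDK4, CDK6, CDK2, CCND1, SKP2, CKS1B, FOXO1, FOXO3, BMI1, EZH2, CDKN2B-AS1, MTAP and KCNQ1OT1), genes overlapping a member, up to 5 genes a list with the largest change at an adjusted p under 0.05, and the 3 nearest patterns to each called member. CBX6, CBX8, ID1, CDK7, CCNH and MNAT1 are mentioned besides, and their values under the alternatives are not given.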

Additional observations from a re-analysis of the deposited data

Results flagged for a closer look

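2 transcript starts were listed in a shNeuroD1 library and in neither shControl library. The outermost CDKN2C start (GRCh38 chromosome 1, position 50960745) was listed at 14.1 FPKM in shNeuroD1 replicate 2, and the outermost CDKN2A start (chromosome 9, position 21995301) at 0.106 FPKM in shNeuroD1 replicate 1. Neither was listed in the other shNeuroD1 library, so neither is shared by the group.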

How the results depend on the processing

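CDKN1B, CDKN1C and CDKN2C kept their direction and their call under every count-based alternative, CDKN2A kept its direction and lost its call without shControl replicate 1, and CDKN2D passed the threshold under none. Leaving out 1 library at a time, with the lone library of a group assumed to vary like the other group, gave log2 fold changes of -0.54 to -0.49 for CDKN1B, 0.92 to 0.97 for CDKN1C, 0.66 to 1.16 for CDKN2A, -0.69 to -0.65 for CDKN2C, -0.41 to 0.37 for CDKN2D and -2.84 to -2.71 for NEUROD1. CDKN2D turned to -0.20 without shControl replicate 1 and to -0.41 without shNeuroD1 replicate 2. With 1 library left in a group, a call lost in these fits is not read as an effect of the library left out alone. In these fits 1 to 2 members were higher and 0 to 1 passed both thresholds. Scaling by library size alone brought 2 members, CDKN1C and CDKN2A, past both thresholds. With the replicate number as a block (the replicate block), which the check of the numbers did not call for, the log2 fold changes were -0.51, 0.94, 0.90, -0.67 and 0.03 in the order of the symbols, and no call of a member changed.

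On FPKM, limma gave weaker calls: at pseudocounts of 1 and 0.1 CDKN1B was at -0.41 and -0.42, CDKN2A at 0.76 and 0.96 and CDKN2C at -0.71 and -0.73, all past no threshold (adjusted p 0.0745 to 0.310), so 0 members were lower, 1 was higher and 1, CDKN1C, passed both thresholds. Over all 10083 genes limma on log2(FPKM + 1) called 525 genes, against 9637 in the counts, while DESeq2 called 6358 and leaving out shControl replicate 1 or 2 left 6319 and 6466. CCND1 reversed to 0.18 at both pseudocounts. CDKN2B-AS1 reversed to 0.63 and 0.73, on FPKM rows that are not read as its level. In the lists limma called 3 falls among the kinases and cyclins and 0 among the retinoblastoma and E2F genes at both pseudocounts. The cause was not tested. For some genes the FPKM tables and the counts were far apart. HAND2 and BRCA1, with means of 787.5 and 258.9 CPM in shControl, had no FPKM in any library. CD68, with 1 to 5 counts a library, was listed at 155.5 to 196.5 FPKM. The assignment of FPKM to genes was not tested, so FPKM calls and list counts are to be read with this limit. CDKN2D, listed in FPKM in 1 library of each group, was not in the FPKM fit, CDKN2B was not listed there, and CDKN2B had no test by filterByExpr. Of 421 values of 55 other named genes under the remaining alternatives, 335 kept direction and call and 81 kept direction but lost the call, 4 reversed as given here and 1 gained a call. For CDKN2C and CDKN2D the FPKM summed over transcript ends equalled that over starts in every library, so the ends were no separate check. For CDKN1C, ends in place of starts changed the FPKM ratio of the groups by less than the spread between replicates. With 2 libraries a group, changes as small as that of CDKN2D cannot be told from the spread.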
